A study of Drosophila melanogaster with 12 samples.

Results

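The genes of 9 insulator and architectural proteins of Drosophila melanogaster were examined for occupancy by Pol II S5, the form of RNA polymerase II phosphorylated at serine 5 in the repeats of its tail. The members were CTCF, Cp190, su(Hw), mod(mdg4), BEAF-32, Trl, Ibf1, Ibf2 and pita, taken by symbol from the Ensembl BDGP6 annotation, release 115. All 9 were found among its 13968 protein-coding genes. The cells were Kc167, a female line of embryonic origin, and chromatin was immunoprecipitated with a Pol II S5 antibody. Before sequencing, cells had been transfected with 100 pmol of a small interfering RNA against AGO2 (AGO2 KD), with 2 µg of double-stranded RNA against LaminB (LaminB KD), or with neither RNA (mock). They were collected 3 days later. Each group had 2 replicate libraries, called replicate 1 and replicate 2 below, and each library had an input of its own. Transfection is transient and each RNA acts in a pool of cells, so the share of cells depleted is not given by these data. Nothing in the labels says whether replicates came from separate cultures, so every spread given here may be partly technical.

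Insulator proteins bind chromosomal DNA and limit which enhancers and silencers can act on which promoters, and they mark many borders between folded domains. In flies CTCF, su(Hw), BEAF-32, the GAGA factor encoded by Trl, the Ibf proteins and pita bind DNA directly, while Cp190 and the products of mod(mdg4) are recruited to them and help bring distant sites together. The proteins themselves are widely produced, and the question put to their genes was whether depletion of AGO2 or of LaminB changed where polymerase was called as present on them.

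Promoters are shown first, because most members shared one sequence there. The palindrome TATCGATA, known as the DNA replication-related element (DRE) and bound by the transcription factor Dref, occurred in the window from 250 bases before to 50 bases after the start in 7 of 9 members. The same window held it in 9.36% of all protein-coding genes and in 17.7% of the 5260 that had a promoter peak in all 6 libraries. The match began 21 bases before the start of CTCF, 4 before Cp190, 54 before mod(mdg4), 40 before Ibf1, 7 before Ibf2, 68 before pita and 210 before BEAF-32. The core recognised by BEAF-32, CGATA, lies inside the DRE on both strands, so that each DRE counts as 2 overlapping cores, and the 7 members with a DRE hold it by construction. In this window su(Hw) and Trl had no core, beside 47.3% of all genes with one, 60.6% of those with a promoter peak in all 6 libraries and 70.8% of the 24 partner genes described last. Ibf1 had the most cores in its window, 5. The GAGA factor's letters GAGAG were found in 0 of 9 members and in 29.7% of all genes, the TATA box letters TATAAA in 4 of 9 members and in 45.8% of all genes, and core promoter Motif 1, GGTCACACT, in 1 of 9 members and in 6.04% of all genes. That member was su(Hw), which together with Trl had no DRE in its window. Both strands were searched, and a match describes letters only. The window was that of the first annotated start, and other annotated starts were not searched. In Trl the first start was under a peak in no library, whereas its other starts were under peaks in every library. The next lines give the bases from 100 before to 20 after the first annotated start, 5′ to 3′ on the strand of the gene, with every match of the 5 motifs in capitals. They are shown to place the DRE relative to the start in some of the members that hold it, and su(Hw) is included as a member without it. The windows of BEAF-32 and pita, which also hold a DRE, and of Trl are not printed.
CTCF: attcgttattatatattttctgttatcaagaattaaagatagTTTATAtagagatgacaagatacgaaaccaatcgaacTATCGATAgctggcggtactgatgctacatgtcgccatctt
Cp190: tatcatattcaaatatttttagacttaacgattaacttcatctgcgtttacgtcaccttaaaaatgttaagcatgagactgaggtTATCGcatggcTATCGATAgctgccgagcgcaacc
mod(mdg4): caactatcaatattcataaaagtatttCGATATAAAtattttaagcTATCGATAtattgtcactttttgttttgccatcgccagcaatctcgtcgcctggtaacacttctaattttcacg
Ibf1: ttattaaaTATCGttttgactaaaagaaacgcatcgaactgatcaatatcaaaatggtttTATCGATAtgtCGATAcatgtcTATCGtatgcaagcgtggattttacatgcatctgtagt
Ibf2: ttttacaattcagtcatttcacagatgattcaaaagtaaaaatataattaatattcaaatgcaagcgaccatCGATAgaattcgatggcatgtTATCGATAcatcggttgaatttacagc
su(Hw): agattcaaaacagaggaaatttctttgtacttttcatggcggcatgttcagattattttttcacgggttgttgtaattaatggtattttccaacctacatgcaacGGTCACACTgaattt
The windows are chr3L:7356694-7356813 (minus strand) for CTCF, chr3R:15275222-15275341 (minus strand) for Cp190, chr3R:21377382-21377501 (minus strand) for mod(mdg4), chr3R:9258864-9258983 (plus strand) for Ibf1, chr3R:9258482-9258601 (minus strand) for Ibf2 and chr3R:14308570-14308689 (minus strand) for su(Hw). They were read from the RefSeq genome of the dm6 build. CTCF also carried a TATA box match before its start, and in mod(mdg4) such a match overlapped a BEAF-32 core. Ibf1 and Ibf2 are transcribed away from each other and each had its own DRE that began in the 462 bases between their starts.

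The libraries differed in how much of the genome was called, and this bears on each value below. They held 5532 and 6631 peaks after AGO2 KD, 8541 and 5108 after LaminB KD, and 6435 and 7162 in mock, covering 5.57 and 8.01 Mb after AGO2 KD, 14.6 and 4.19 Mb after LaminB KD, and 8.27 and 10.5 Mb in mock. LaminB KD replicate 1 had the longest and LaminB KD replicate 2 the shortest covered length of all 6. Read depth is unknown from peak lists, and its part in the results was not tested. The targeted genes were covered over 6.67% and 9.97% (AGO2, in AGO2 KD) against 7.20% and 7.39% in mock, and over 82.5% and 23.5% (Lam, in LaminB KD) against 72.5% and 77.4% in mock, which does not measure their RNA or protein. Of 10 hemocyte markers fixed for this line, 8 had a peak in at least 1 library, against 2 of 4 neuron markers, 2 of 3 germline markers found, 0 of 4 muscle markers and 0 of 4 fat body markers.

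All 9 members had a peak in at least 1 library, and 8 of 9 had one in every library, against 56.6% and 38.2% of all protein-coding genes. The exception was su(Hw). A promoter peak, meaning a peak within 500 bp of the start on either side, was present in all 6 libraries for CTCF, Cp190, mod(mdg4), BEAF-32, Ibf2 and pita, which is 6 of 9 members against 37.7% of all protein-coding genes. Levels are given as the covered share, the percentage of a gene's length under peaks. The median covered share of the members was 42.4% and 64.0% after AGO2 KD, 82.1% and 26.1% after LaminB KD, and 55.6% and 86.5% in mock. Over the 7904 protein-coding genes with a peak in any library, the medians were 10.9% and 20.3%, 56.4% and 6.24%, and 21.0% and 31.7% in the same order. The extremes of covered length were also the extremes of most members: 7 of 9 were highest, ties included, in LaminB KD replicate 1 and 8 of 9 were lowest, ties included, in LaminB KD replicate 2. The median over genes with a peak was likewise highest and lowest in these libraries, at 56.4% and 6.24%. The same counts over all genes are not given, so this is not read as a trait of the members. In mock, the members in order of mean covered share were Ibf2, pita, BEAF-32, Cp190, Ibf1, Trl, mod(mdg4), CTCF and su(Hw). Neighbours in this order did not overlap in mock between BEAF-32 and Cp190, Trl and mod(mdg4), and mod(mdg4) and CTCF, and every other neighbouring pair overlapped or tied.

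**Figure D1:**
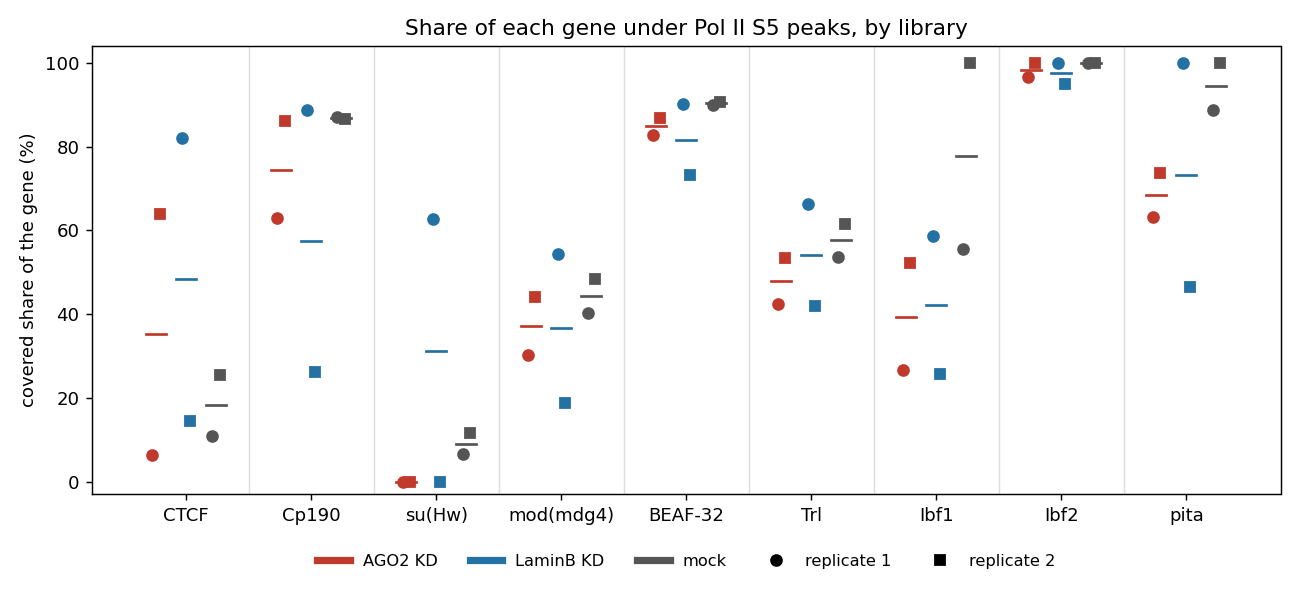
Covered share of each member in percent of gene length (vertical axis) for the 9 genes (horizontal axis), with AGO2 KD left, LaminB KD in the middle and mock right in each column; circles are replicate 1, squares replicate 2 and short bars the mean of 2. The LaminB KD replicates stand furthest apart in every member except Ibf1, as in su(Hw) at 62.6% and 0%, while pita in AGO2 KD, at 63.3% and 73.7%, lies below both mock libraries at 88.8% and 100%.

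After AGO2 depletion, covered share was lower in both libraries than in both mock libraries for Cp190, su(Hw), BEAF-32, Trl, Ibf1 and pita, higher for none, and overlapping for CTCF, mod(mdg4) and Ibf2, although by ranks within a library Cp190, BEAF-32 and Trl were higher. These 6 of 9 stand beside a background of 42.1% of genes with a peak in any library (23.8% of all protein-coding genes) that were lower by the same rule, and 0.443% (0.251%) that were higher. A gene at 0% in a mock library cannot be called lower in covered share. All 9 members had a peak in both mock libraries, whereas the background includes genes without one. The background was not matched to the members in mock coverage, so the excess over it is not read as a trait of the members. The median difference was -9.14 percentage points over the members and -3.89 over genes with a peak. The differences of the 6 ranged widely, since pita had a difference of -25.9 points with 15.1 points between the nearest libraries, while the groups were only 0.114 points apart in Trl and 0.499 in Cp190. With a gap of at least 10 points demanded, pita alone was lower, beside 10.2% of genes lower and 0.0506% higher. Each of the 6 had an exact two-sided permutation p of 0.333, the smallest that 2 libraries against 2 can give, so no comparison of a single gene could pass 0.05.

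The direction for Cp190, BEAF-32 and Trl depended on the scale, and both AGO2 KD lists covered less of the genome than both mock lists. Ranked among all protein-coding genes of its own library, the covered share was higher in AGO2 KD than in mock for Cp190, mod(mdg4), BEAF-32 and Trl, and lower for su(Hw) and Ibf1. The background for ranks, chosen after seeing the data, was 42.6% of genes with a peak higher and 11.0% lower. The rank shifts were small for the first group, such as percentiles of 91.4 and 91.8 in AGO2 KD against 90.9 and 88.3 in mock for Cp190. When each list was reduced to its best peaks up to the same covered length, Ibf1 and pita were lower in AGO2 KD and no member was higher, beside 18.2% of genes lower and 5.21% higher. At that length the differences of Cp190 and BEAF-32 were 31.4 and 43.4 points and their groups overlapped. Ibf1 was the sole member lower on these 3 scales, but it overlapped when peaks up to 1000 bp apart were merged, where su(Hw), BEAF-32 and Trl were lower, beside 39.1% of genes lower and 0.418% higher.

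The members called lower in AGO2 KD also moved with the peaks kept. With the same number of peaks in each library 7 of 9 were lower, CTCF joining the 6, beside 39.0% of genes lower and 0.987% higher. With the upper 50% of peaks by score 5 of 9 were lower, namely Cp190, BEAF-32, Ibf1, Ibf2 and pita, beside 28.3% lower and 0.633% higher. With a -log10 q of 5 or more these and su(Hw) were lower, 6 of 9, beside 34.4% lower and 0.304% higher. Under both of these stricter rules the difference was -43.7 points for Cp190, -46.9 for BEAF-32 and -100 for Ibf2. Cp190 and BEAF-32 then had no peak left in AGO2 KD replicate 1 and kept their full covered share in AGO2 KD replicate 2, at 86.0% and 86.9%.

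**Figure D2:**
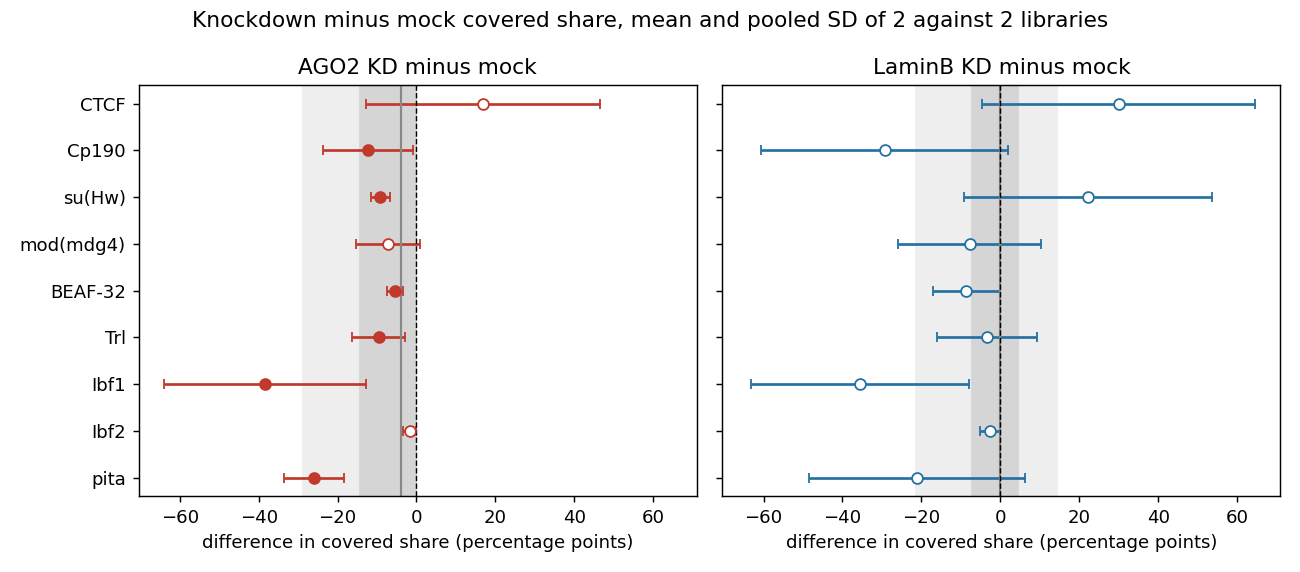
Difference in mean covered share in percentage points (horizontal axis) for each member, AGO2 KD minus mock on the left and LaminB KD minus mock on the right. Error bars are the pooled SD of 2 against 2 libraries, filled points are genes whose groups did not overlap, grey bands span the 10th to 90th and 25th to 75th percentiles of 7904 genes with a peak, and the grey line is their median. In AGO2 KD 6 points are filled and all lie below 0 on this scale, and in LaminB KD none is filled.

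After LaminB depletion no member lay above or below mock in both libraries. The background was 0.278% of genes with a peak (0.158% of all protein-coding genes) higher and 2.30% (1.30%) lower. The median difference was -7.77 points over the members and -0.0389 over genes with a peak. The replicates decided the direction: without LaminB KD replicate 2, CTCF, Cp190, su(Hw), mod(mdg4) and Trl were higher than both mock libraries, and without LaminB KD replicate 1, all members except CTCF were lower. LaminB KD replicates 1 and 2 covered 14.6 and 4.19 Mb of the genome. The share of all genes called with 1 library left out is not given, so these calls are not read as a trait of the members. Ranked within each library, CTCF was higher in LaminB KD, at percentiles of 81.0 and 80.1 against 64.3 and 68.9 in mock, and Cp190 was lower, at 83.4 and 86.4 against 90.9 and 88.3. By ranks 17.5% of genes with a peak were higher and 17.9% lower. Both knockdowns were set against the same mock libraries, so the comparisons are not independent of each other.

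**Figure D3:**
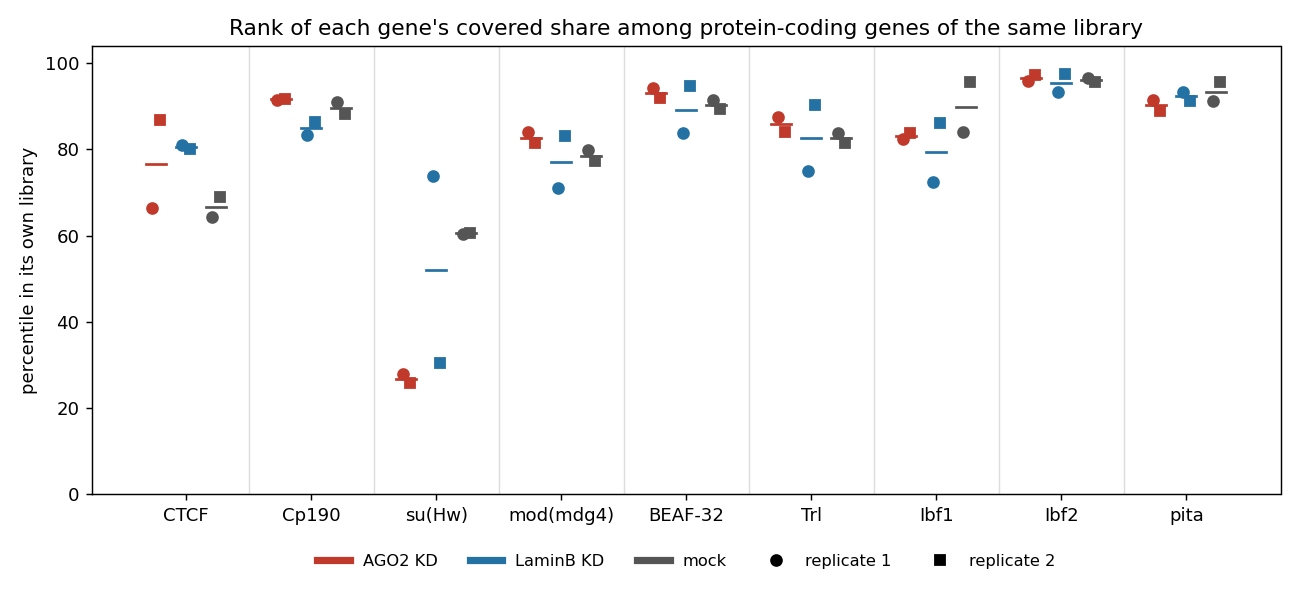
Percentile of each member's covered share among the protein-coding genes of the same library (vertical axis) for the 9 genes, with AGO2 KD left, LaminB KD in the middle and mock right; circles are replicate 1, squares replicate 2 and short bars the mean of 2. In AGO2 KD su(Hw) had percentiles of 27.9 and 25.8 against 60.4 and 60.7 in mock, where a gene at 0% takes the mean rank of all genes at 0%.

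Among the DNA-binding members, pita gave the widest separation of covered share between AGO2 KD and mock. It encodes a zinc-finger protein that recruits Cp190, and lies on the minus strand of chromosome 2R at 23548967 to 23554712. Covered shares were 63.3% and 73.7% after AGO2 KD, 100% and 46.6% after LaminB KD, and 88.8% and 100% in mock. The AGO2 KD libraries averaged 68.5% ± 7.32 against 94.4% ± 7.94 in mock (SD, n = 2 each), with no overlap. In LaminB KD the groups overlapped, since replicate 1 tied mock replicate 2 at 100% and replicate 2 lay below both mock libraries. The difference lay inside the gene: 1512 bp of its 5746 bp were under peaks in both mock libraries and neither AGO2 KD library, and 0 bp showed the reverse. The promoter peak ended 830 and 835 bp downstream of the start after AGO2 KD, 10797 and 807 bp after LaminB KD, and 2194 and 10784 bp in mock. In AGO2 KD it was followed by separate peaks that began 1520 and 1461 bp downstream, at the nested gene Dcp-1, which encodes an effector caspase and is transcribed the opposite way, and by others that began 4949 and 4876 bp downstream and ran past the end of pita. The peaks at Dcp-1 also covered the second annotated start of pita, 3161 bp downstream, so they cannot be assigned to either gene alone. That start was under a peak in every library, and the first start in every library except LaminB KD replicate 2. In mock replicate 2 and LaminB KD replicate 1 a single peak spanned the whole gene and the starts of Rrp4, an exosome subunit, AIMP3, Dcp-1, levy and wmd. Over the bases of pita that lie in no other gene the share was 49.9% and 65.2% in AGO2 KD and 100% in both mock libraries, a difference of -42.5 points. Merging peaks up to 1000 bp apart ended the separation, with a difference of -12.3 points. Ranked within its library pita also overlapped, at percentiles of 91.4 and 89.0 in AGO2 KD against 91.2 and 95.6 in mock. Its main difference of -25.9 points lay between the 10th and 90th percentiles of genes with a peak, -28.8 and 0 points.

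Ibf1 and Ibf2 encode partner proteins that bind DNA together and associate with Cp190, and their genes share a promoter region on chromosome 3R. Ibf1 runs on the plus strand from 9258964 to 9260400 and Ibf2 on the minus strand from 9257727 to 9258501. The 462 bp between them, in which both DREs shown above begin, were covered over 0% and 100% after AGO2 KD, 100% and 0% after LaminB KD, and 100% in both mock libraries. Where this stretch was covered, 1 peak lay over both starts, so that the signals of the pair cannot be told apart. In AGO2 KD replicate 1 and LaminB KD replicate 2 the peak of Ibf2 instead began 27 and 39 bp inside that gene. It ended 1192 and 1193 bp from the start, past the end of Ibf2. In every library the peak at Ibf2 also covered the start of the neighbouring gene CG16736, so the coverage of Ibf2 cannot be assigned to Ibf2 alone. Ibf1 was covered over 26.6% and 52.2% after AGO2 KD, 58.7% and 25.7% after LaminB KD, and 55.6% and 100% in mock. Its AGO2 KD difference of -38.4 points had a pooled SD of 25.6 and was -16.2 points without mock replicate 2 and -60.6 without mock replicate 1. In mock replicate 2 a single peak ran across the entire gene. In the other 5 libraries the downstream end of Ibf1 lay under a separate peak that began 963 to 1067 bp from its start and covered the start of ATP6AP2, an accessory subunit gene of the vacuolar ATPase. Ibf2, which is only 775 bp long, was covered over 96.5% and 100% after AGO2 KD, 100% and 95.0% after LaminB KD, and 100% in both mock libraries. Its value depended on the peaks kept, since with the upper 50% of peaks by score it was covered over 0% in both AGO2 KD libraries and 100% in both mock libraries. The peak over its promoter, ranked by q-value among the peaks of its library, stood at percentiles of 37.7 and 41.5 after AGO2 KD, 62.8 and 51.0 after LaminB KD, and 50.2 and 71.8 in mock, so that mock replicate 1 lay just inside that limit. In mock replicate 2 the ranked peak was 5415 bp wide and also covered Ibf1 and the start of ATP6AP2. With a -log10 q of 5 or more, which left LaminB KD replicate 2 with 288 peaks in all, the LaminB KD difference of Ibf2 was -50 points.

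The gene su(Hw) encodes the zinc-finger protein of the gypsy insulator and had the lowest mean covered share of the members in each group. It lies on the minus strand of chromosome 3R at 14304455 to 14308589. It was covered over 0% and 0% after AGO2 KD, 62.6% and 0% after LaminB KD, and 6.67% and 11.6% in mock. In LaminB KD replicate 1 this was above mod(mdg4), at 54.4%, and Ibf1, at 58.7%. The mock coverage was confined to the promoter side, since coverage from 500 bp downstream of the start was 0% in both mock libraries. Upstream lies Polr2I, a Pol II subunit gene transcribed the opposite way, with 499 bp between the starts. In AGO2 KD the nearest peaks came no closer than 532 and 524 bp to the start of su(Hw) and began inside Polr2I, and in LaminB KD replicate 2 the distance was 513 bp. The mock peaks began at -1002 and -1084 bp relative to the start of su(Hw), covered the start of Polr2I and reached 275 and 479 bp into su(Hw). Polr2I itself was covered over 35.6% and 49.7% after AGO2 KD, 52.6% and 46.2% after LaminB KD, and 46.1% and 53.7% in mock, with overlap. Thus 3 libraries held a peak on the Polr2I side alone and the other 3 held one over both genes. In LaminB KD replicate 1 a further peak lay 2807 to 3503 bp inside su(Hw). The difference of AGO2 KD from mock was 0 points when only the upper 50% of peaks by score or the same covered length was kept.

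CTCF encodes the fly counterpart of the vertebrate CTCF zinc-finger protein. Its gene lies on the minus strand of chromosome 3L at 7353578 to 7356713, with a noncoding antisense gene, asRNA:CR45822, inside it. Covered shares were 6.41% and 64.0% after AGO2 KD, 82.1% and 14.5% after LaminB KD, and 11.0% and 25.6% in mock. This was the most uneven member between AGO2 KD replicates, and the AGO2 KD difference of 16.9 points became 45.7 without replicate 1 and -11.9 without replicate 2. With the same number of peaks in each library CTCF was covered over 0% in both AGO2 KD libraries against 11.0% and 25.6% in mock, a difference of -18.3 points without overlap, and the LaminB KD difference was -11.1 points rather than 30.0. The peak lay over the start in every library but ended 200 and 2007 bp downstream after AGO2 KD, 2573 and 453 bp after LaminB KD, and 344 and 802 bp in mock. Only in AGO2 KD replicate 2 and LaminB KD replicate 1 did it also cover the start of asRNA:CR45822, so its extension there cannot be assigned to CTCF alone. Over bases of CTCF in no other gene, the share was 51.0% and 76.6% in these libraries and 5.21% in each of the others. Only 201 bp of the gene were covered in all 6 libraries. The promoter peak was weak: by q-value it stood at percentiles of 7.16 and 13.2 after AGO2 KD, 36.5 and 4.21 after LaminB KD, and 25.0 and 29.3 in mock. These ranks come from lists of different lengths and are given as a description, for CTCF as for Ibf2 and mod(mdg4).

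**Figure D4:**
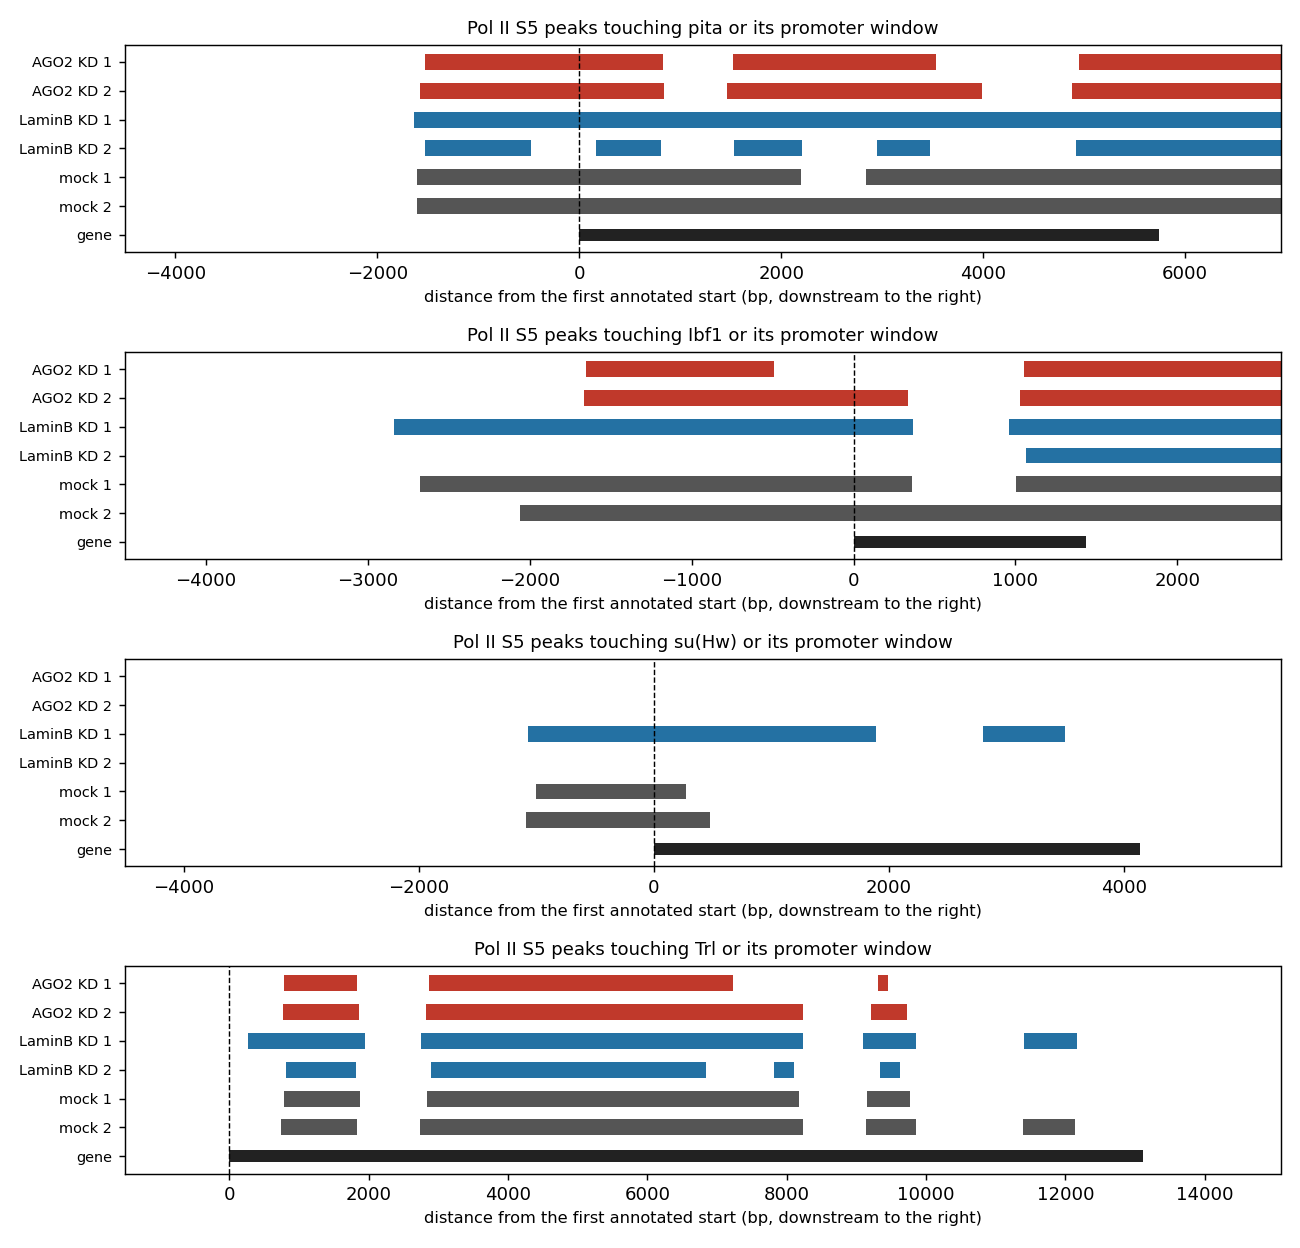
Extent of each Pol II S5 peak (coloured bars) that touches pita, Ibf1, su(Hw) or Trl or the 500 bp around its start, with AGO2 KD at the top, then LaminB KD, then mock, replicates 1 and 2 each. The horizontal axis is the distance in bp from the first annotated start, black bars are the genes, and peaks running past the axis are cut at its edge. In pita the mock peaks fill gaps that both AGO2 KD libraries show, and su(Hw) has no peak in AGO2 KD.

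BEAF-32 encodes a boundary element-associated factor that binds the CGATA core, and its own window held a DRE. It lies on the plus strand of chromosome 2R at 14770469 to 14772630 and was covered over most of its length in every library, with 82.8% and 86.9% after AGO2 KD, 90.1% and 73.1% after LaminB KD, and 89.9% and 90.7% in mock. The AGO2 KD libraries averaged 84.9% ± 2.85 against 90.3% ± 0.523 in mock (SD, n = 2 each), a small difference without overlap. The downstream edge of its peak differed by little, at 1848 and 1877 bp from the start after AGO2 KD, 1947 and 1798 bp after LaminB KD, and 1943 and 1959 bp in mock. The upstream edge varied more. The peak reached back over the first annotated start and over the start of Spred, a gene for a negative regulator of Ras signalling, in 4 libraries, but began 58 bp downstream of the start in AGO2 KD replicate 1 and 218 bp in LaminB KD replicate 2. The other annotated starts of BEAF-32, 447 and 832 bp downstream, lay under the peak in all 6 libraries. Its peak also covered the start of the antisense gene asRNA:CR42254 throughout.

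Trl encodes the GAGA factor, which opens chromatin at many promoters. It lies on the minus strand of chromosome 3L at 14747929 to 14761049 and has 4 annotated starts. Covered shares were 42.4% and 53.5% after AGO2 KD, 66.2% and 42.0% after LaminB KD, and 53.7% and 61.5% in mock. The groups AGO2 KD and mock were separated by 0.114 points, well under the pooled SD of 6.79 points. The first annotated start was under a peak in 0 of 6 libraries, and the other starts, 3087, 3270 and 3713 bp downstream, were under peaks in all 6. The start at 3087 bp is also that of CG42507, a gene on the same strand that shares the downstream part of Trl, and covers 76.5% of it, so that the peaks there cannot be assigned to either. The gene Tsen34, on the same strand, overlaps a further 4.04% of Trl at its first start. Its large internal peak extended to 7233 and 8229 bp after AGO2 KD, 8234 and 6837 bp after LaminB KD, and 8182 and 8240 bp in mock. A separate peak lay between the first and second starts in every library, beginning 786 and 769 bp downstream after AGO2 KD, 261 and 806 bp after LaminB KD, and 786 and 738 bp in mock. A peak near the far end of the gene, beginning 11413 and 11392 bp downstream, was called only in LaminB KD replicate 1 and mock replicate 2, the libraries with the longest covered length.

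Of the recruited members, Cp190 encodes a cofactor with a BTB domain that several classes of fly insulator share. It lies on the minus strand of chromosome 3R at 15270432 to 15275241. Covered shares were 62.9% and 86.0% after AGO2 KD, 88.7% and 26.1% after LaminB KD, and 87.0% and 86.5% in mock. The AGO2 KD value rested mainly on replicate 1, since the difference of -12.3 points was -0.759 without it and -23.8 without replicate 2. The promoter peak was wide and ended 3024 and 4134 bp downstream after AGO2 KD, 4264 and 1024 bp after LaminB KD, and 4183 and 4158 bp in mock. In 5 libraries it also covered the starts of CG4338, MRG15, Tm1 and asRNA:CR46081, and in LaminB KD replicate 2 that of CG4338 alone. The 280 bp between the divergent starts of Cp190 and CG4338 were covered completely in all 6 libraries. LaminB KD replicate 2 had a second, separate peak 2426 to 2657 bp inside Cp190, where the other libraries had continuous coverage.

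The other recruited member, mod(mdg4), encodes BTB-domain proteins with many alternative ends that are joined to a common part by trans-splicing, the splicing together of separate transcripts. It is the longest member, at 26556 bp on the minus strand of chromosome 3R from 21350846 to 21377401, and 64.4% of it lies in other annotated genes. Covered shares were 30.3% and 44.2% after AGO2 KD, 54.4% and 18.9% after LaminB KD, and 40.4% and 48.5% in mock, with overlap in both comparisons. Its promoter peak ranked high by q-value, at percentiles of 80.5 and 86.0 after AGO2 KD, 96.5 and 69.8 after LaminB KD, and 86.5 and 89.6 in mock. By fold the percentiles were 59.2 and 63.6 after AGO2 KD, 94.5 and 19.0 after LaminB KD, and 74.3 and 76.6 in mock. The peak ended 4471 and 4753 bp downstream after AGO2 KD, 4878 and 2367 bp after LaminB KD, and 4732 and 4554 bp in mock. The gene held 3 and 3 further peaks after AGO2 KD, 4 and 3 after LaminB KD, and 2 and 3 in mock. The annotation lists 23 precursor entries for the trans-spliced ends inside mod(mdg4), which begin at 6 distinct positions, 4 on its own strand and 2 on the opposite strand. All 6 positions were under peaks in every library except LaminB KD replicate 2, where 1 of 6 was. They fell into clusters around 3826 bp, from 11792 to 12111 bp and from 17225 to 17633 bp downstream of the common start, and the internal peaks of mod(mdg4) lay over the last 2 of these clusters in 5 libraries.

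Other genes of insulator partners, cohesin and condensin were compared by the same rule, using a list of 24 that were all found. In AGO2 KD 10 of 24 were lower and 0 were higher, with a median difference of -7.81 points, and in LaminB KD 0 of 24 were lower and 0 higher, with a median of -0.900. Thus 6 of 9 members and 10 of 24 partners were lower in AGO2 KD, beside the background of 42.1%, which was matched to neither list in mock coverage. The largest falls among non-overlapping partners were in dwg, the zinc-finger protein Zw5, covered over 57.2% and 94.0% in AGO2 KD against 100% in both mock libraries, and in rump, an RNA-binding protein, covered over 25.9% and 43.0% against 54.9% and 60.4%. The DRE occurred in 5 of 24 partner windows, which is 20.8%. The 3 genes outside the list whose covered shares in the 6 libraries lay closest to the median of the members were Bre1 (distance 11.9 points), nocte (13.2) and Dref (14.0). Dref, the gene of the factor that binds the DRE, was covered over 40.3% and 60.9% after AGO2 KD, 86.2% and 23.1% after LaminB KD, and 43.2% and 85.9% in mock.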

How the data were processed

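Pol II S5 ChIP-seq peak lists of 6 immunoprecipitated libraries were analysed; the labels also name 6 inputs, which entered as the controls of the peak calls. The submitters' processing notes name cutadapt 1.10, Bowtie2, Picard 2.11.0, MACS2 2.1.1.20160309 and the dm6 build. The authors trimmed and aligned reads, removed duplicates and called broad peaks for each replicate against its input. The deposited score equals 10 times the −log10 q-value, truncated, when checked. The deposited fold, a ratio of pileup to local background, is an average over the peak. The authors gave p-values and q-values as −log10. Each list was called on its own and is not scaled to another, so a deeper or cleaner library gives more and wider peaks from the same chromatin.

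Genes were taken from Ensembl release 115 (BDGP6, the dm6 sequence), without transposable elements, and coordinates count from 1. An overlap of 1 bp or more counted. A gene was called higher or lower when both knockdown libraries lay outside both mock libraries, and each single value was given an exact permutation p, two-sided, for 2 libraries against 2 (6 labelings, smallest p 0.333). The study's methods test read counts, which peak lists do not hold, so no such test was run. Alternatives changed the peaks kept (equal number, equal covered length, the upper 50% by score, −log10 q of at least 5), merged peaks up to 1000 bp apart, measured other parts of the gene, demanded a gap of 10 points, left out each replicate or used the replicate number as a block. The promoter windows were also varied (1500 bp, any annotated start, the start base). All 9 members, the AGO2 and Lam genes, the partners with the largest non-overlapping differences, the 3 nearest genes by Euclidean distance and neighbours whose start lay under a promoter peak were named. The members and lists were chosen with earlier results of these data known. The code for covered shares was tested on simulated data. Python 3.11.15, numpy 2.4.6 and scipy 1.17.1 were used.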

Additional observations from a re-analysis of the deposited data

How the results depend on the processing

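With AGO2 KD against mock, the number of lower members, 6, was 2 at the same covered length per library, 3 with peaks up to 1000 bp apart merged, 1 with groups at least 10 points apart and 2 by percentile within the library, an alternative chosen after seeing the data, by which 4 were higher. At the same covered length the differences of Cp190 and BEAF-32 changed sign to 31.4 and 43.4 points, with overlapping groups. Cp190 was then covered over 62.9% and 0% in AGO2 KD and BEAF-32 over 0% and 86.9%. Neither kept a peak in either mock library at that length. With the same number of peaks the difference of CTCF, which overlapped at 16.9 points, was -18.3 points. Leaving out 1 library gave 6 to 9 lower and 0 to 1 higher members. By the rule used, leaving out a library cannot undo a call, so the number of lower members could not fall below 6. The share of all genes called with 1 library left out is not given for either knockdown. These counts are therefore not read as a trait of the members. With LaminB KD against mock, where the counts were 0 and 0, leaving out 1 library gave 0 to 8 lower members, 8 without LaminB KD replicate 1 and 2 without mock replicate 1, and 0 to 5 higher members, 5 without LaminB KD replicate 2 and 1 without mock replicate 2; by percentile 1 was lower and 1 higher. The cause of these changes was not tested. The sign of the difference of a member was kept in 34 of 36 values that left out 1 library in AGO2 KD and in 28 of 36 in LaminB KD. For the 6 members called lower in AGO2 KD the sign could not change, so most of the 34 were fixed in advance.

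Labels give the groups the same replicate numbers without saying what a number shares. The difference between replicates 1 and 2 over 7904 genes had Pearson r of 0.221 between AGO2 KD and mock, -0.372 between LaminB KD and mock and -0.457 between AGO2 KD and LaminB KD, as a description across genes. With the replicate block, 7 members were lower and 0 higher in AGO2 KD, and 0 were lower and 0 higher in LaminB KD. Members whose groups do not overlap are lower within each replicate number in any case, so this AGO2 KD count could not fall below 6. The share of all genes called with this block is not given. With a promoter window of 1500 bp, su(Hw) and Trl each had a promoter peak in 6 libraries rather than 3 and 1, and Trl also had 6 when any annotated start was used and 0 when the start base had to be covered. The depth of the libraries, which sets how weak a peak can be called, is unknown from these lists, and a gene without a peak is not shown to lack polymerase.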
